A study of Bos taurus with 21 samples.

Results

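Of the 21 Holstein cows whose milk somatic cells were sequenced, 14 are described here, the 7 with the highest and the 7 with the lowest share of casein transcripts. The share was the sum of the counts on CSN1S1, CSN1S2, CSN2 and CSN3 divided by all counts on genes, so the cows were chosen by measured counts and not by a label. They are called casein-rich and casein-poor below, and the 7 cows between them are called the middle cows. Each cow gave 1 library of total RNA from the cells in its milk, and the labels give each cow a milk yielding group (high, HY, or low, LY), parity, lactation day and breeding values of milk yield, fat, protein and solids, with no unit. The labels name no treatment, and the cows came from 1 farm. Both casein groups held 3 HY and 4 LY cows, as did the middle cows.

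Caseins are the main proteins of milk, and their genes are transcribed in the secretory epithelial cells of the mammary gland under the control of prolactin. The cells recovered from milk are a mixture of shed epithelial cells and of leukocytes, mostly macrophages, neutrophils and lymphocytes. Around the caseins, the same epithelial cells make whey proteins and lactose, assemble triacylglycerol into droplets and release these wrapped in a membrane that carries its own proteins. Leukocytes take up fat and debris and answer bacteria with cytokines and chemokines. In bulk libraries such as these, fewer cells of a type and less RNA per cell cannot be told apart.

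The casein share of the casein-rich cows was 23.4% to 44.2%, with a median of 26.4%. In the casein-poor cows it was 0.088% to 2.71%, with a median of 0.370%. The gap at the upper border was wide, with 23.4% in the last casein-rich cow (7598) and 17.0% in the first middle cow (2893). At the lower border the first casein-poor cow (3272) had 2.71% and the last middle cow (2920) 2.78%, so that border parted cows with almost the same share. All 4 caseins ranked the groups alike, as the rule made likely. Levels are given as CPM, counts scaled to 1000000 casein-free counts of a library after TMM scaling. CSN1S1 (alpha-S1-casein) had a median of 124800 CPM in casein-rich and 1229 CPM in casein-poor cows. CSN2 (beta-casein) had medians of 134800 and 1295, CSN1S2 (alpha-S2-casein) of 42560 and 306.8, and CSN3 (kappa-casein, the micelle surface protein) of 48440 and 494.2. The log2 ratio of the group means lay between 5.54 for CSN2 and 6.04 for CSN3. These values chose the cows and are given without a test.

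Within the casein counts, the proportions of the 4 genes were of similar size in both groups. CSN1S1 made up 37.2% ± 2.10 (SD, n = 7) of casein counts in casein-rich and 33.6% ± 2.64 in casein-poor cows. CSN2 made up 37.3% ± 6.28 and 42.6% ± 5.68, CSN1S2 11.025% ± 2.36 and 10.5% ± 3.63, and CSN3 14.5% ± 4.68 and 13.2% ± 3.28. For each of the 4 proportions the ranges of the groups overlapped, and none was tested. The overlap was narrow for CSN1S1, at 35.4% to 40.9% in casein-rich and 28.95% to 37.0% in casein-poor cows. Its casein-poor median of 34.0% lay below every casein-rich cow.

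**Figure D1:**
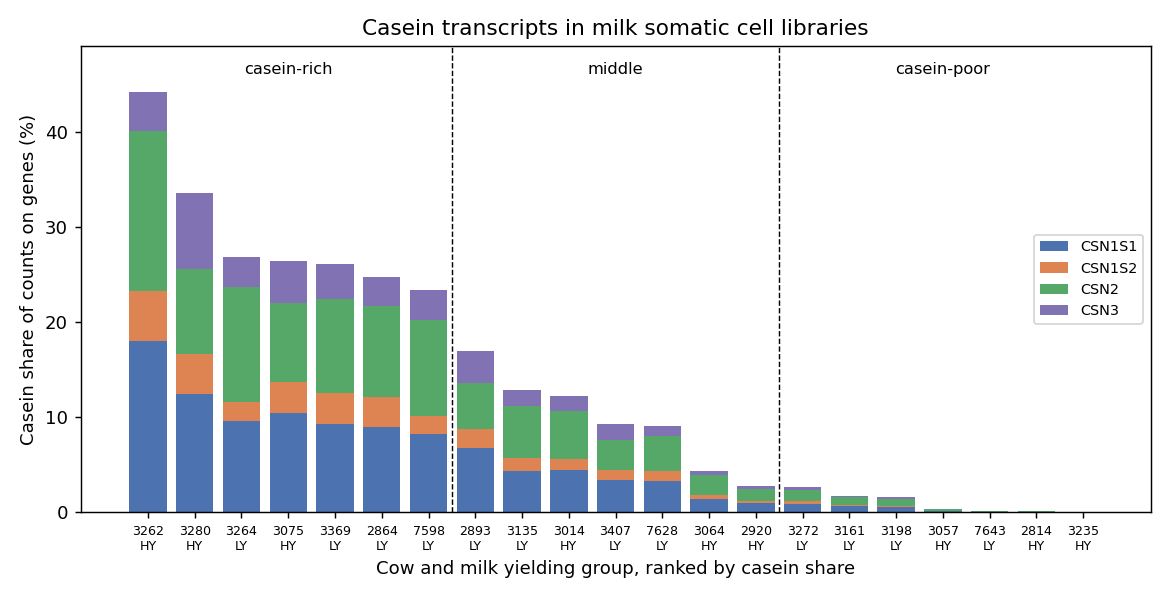
Casein share of the counts on genes, in percent, for each of the 21 cows ranked from left to right, with the bars stacked by casein gene and the milk yielding group under each cow number. The 7 casein-rich cows lie between 23.4% and 44.2% and the 7 casein-poor cows between 0.088% and 2.71%, with no step at the lower border.

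The first question was whether cows of the 2 groups differed in what the labels and libraries recorded. Lactation day was 155.6 ± 86.2 (SD, n = 7) in casein-rich and 176.7 ± 83.1 in casein-poor cows (two-sided exact permutation test, p = 0.643). The breeding value of milk yield was 9.67 ± 249 and 81.8 ± 220 (exact permutation p = 0.579). For parity and the breeding values of fat, protein and solids the exact permutation p was 0.731, 0.82, 0.557 and 0.863. Every adjusted p over 10 comparisons was at least 0.81, the ranges overlapped in each trait, and the smallest p this design allows is 0.000583.

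Counts on genes ranged from 9157772 to 25550423 in casein-rich and from 7878557 to 22542235 in casein-poor cows. After the caseins were taken out, the mean was 9510900 ± 3605200 and 14429000 ± 5666000 counts (SD, n = 7, exact permutation p = 0.081, adjusted p = 0.81). A count was found for 10401 ± 612 genes in casein-rich and 10710 ± 270 in casein-poor cows (exact permutation p = 0.242). Alpha-lactalbumin, beta-lactoglobulin and GLYCAM1 together took 6.75% to 34.4% of the casein-free counts in casein-rich and 0.030% to 0.984% in casein-poor cows, and this skew was met with TMM scaling. The TMM factor was 0.637 to 1.27 in casein-rich and 0.832 to 1.22 in casein-poor cows. Each group counted as 7 animals, 1 library each, since the 63 pairs of libraries within a group (middle cows included) differed by more than counting noise.

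Fold changes below are log2 of casein-rich over casein-poor cows. Of 9419 genes tested with edgeR's quasi-likelihood test, 1343 (14.3%) were called at a Benjamini-Hochberg adjusted p under 0.05. Of these, 882 (9.36%) were higher and 461 (4.89%) lower in casein-rich cows. The calls in each gene list below are to be read against these shares. The higher genes moved further, with a median log2 fold change of 1.77 and 406 genes above 2. The lower genes had a median of -1.13, and 28 lay below -2. Values of the 7 cows did not overlap between groups in 493 genes (5.23%), 424 (4.5%) of them higher and 69 (0.733%) lower. The median over all tested genes was -0.02. A call states that the level of a gene went with the casein share across these cows. Since other milk genes share cells with the caseins, their calls do not stand as independent evidence.

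Without TMM scaling the calls were 616 higher and 496 lower, and the median of all genes moved to -0.14. That put 55.4% of calls on the higher side, against 65.7% with TMM. None of the 24 gene lists described here changed the sign of its median under the 4 other scalings tried. When each of the 14 cows was left out in turn, 620 of the 882 higher and 191 of the 461 lower calls held in all 14 fits. Without the 2 casein-rich cows of lowest TMM factor the calls were 625 higher and 360 lower.

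The whey proteins had the largest median of the 24 lists. Of 10 tested members, 8 were higher and 0 lower, with a list median of 5.36. LALBA encodes alpha-lactalbumin, the milk protein that turns a galactosyltransferase into lactose synthase. Its level was 13660 to 118200 CPM (median 21050) in casein-rich and 30.6 to 1548 CPM (median 127.7) in casein-poor cows. The groups did not overlap, and the log2 fold change was 6.42 (SE 1.0, edgeR adjusted p = 0.000353). PAEP, beta-lactoglobulin, had 25800 to 265700 CPM (median 76400) against 256.2 to 6917 (median 886.4), without overlap and with a log2 fold change of 5.60 (SE 0.86, edgeR adjusted p = 0.000318). GLYCAM1, a small mucin-like milk glycoprotein, had 10780 to 155700 CPM (median 29930) against 46.6 to 1654 (median 156.7), and its log2 fold change was 6.62. The lowest casein-rich cow thus stood above the highest casein-poor cow for all 3 of these genes.

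Secreted and transported defence proteins of milk were in the same list. PIGR, the receptor that carries immunoglobulin A across the epithelium, had a median of 398.3 CPM in casein-rich and 8.82 CPM in casein-poor cows, with a log2 fold change of 5.20 (SE 0.61, edgeR adjusted p = 8.16e-05). LPO, lactoperoxidase, had a log2 fold change of 5.53 (range 119.1 to 1320 CPM against 0.423 to 34.1). LTF, the iron-binding lactoferrin, which neutrophils also make, was at 368.9 to 4191 CPM against 16.9 to 593.3 CPM, so that its groups overlapped. Its log2 fold change was smaller, at 2.81 (SE 0.67, edgeR adjusted p = 0.0094). FOLR1, a folate-binding protein, and FGFBP1, which binds fibroblast growth factors, rose by 5.54 and 3.37 on the log2 scale. All 8 calls held when each of the 14 cows was left out in turn.

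The other members of the whey list were not called. SPP1, osteopontin, a phosphoprotein of milk that macrophages also secrete, had 14960 to 94620 CPM (median 34800) in casein-rich and 7541 to 77100 CPM (median 30000) in casein-poor cows. The log2 fold change was 0.25 (SE 0.53, edgeR adjusted p = 0.799). B2M, the light chain of MHC class I, had medians of 4398 and 4224 CPM with a log2 fold change of 0.00 (SE 0.28, edgeR adjusted p = 0.998). Both genes had overlapping groups. The sign of SPP1 changed within LY and without cow 3075, and that of B2M in 14 fits.

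**Figure D2:**
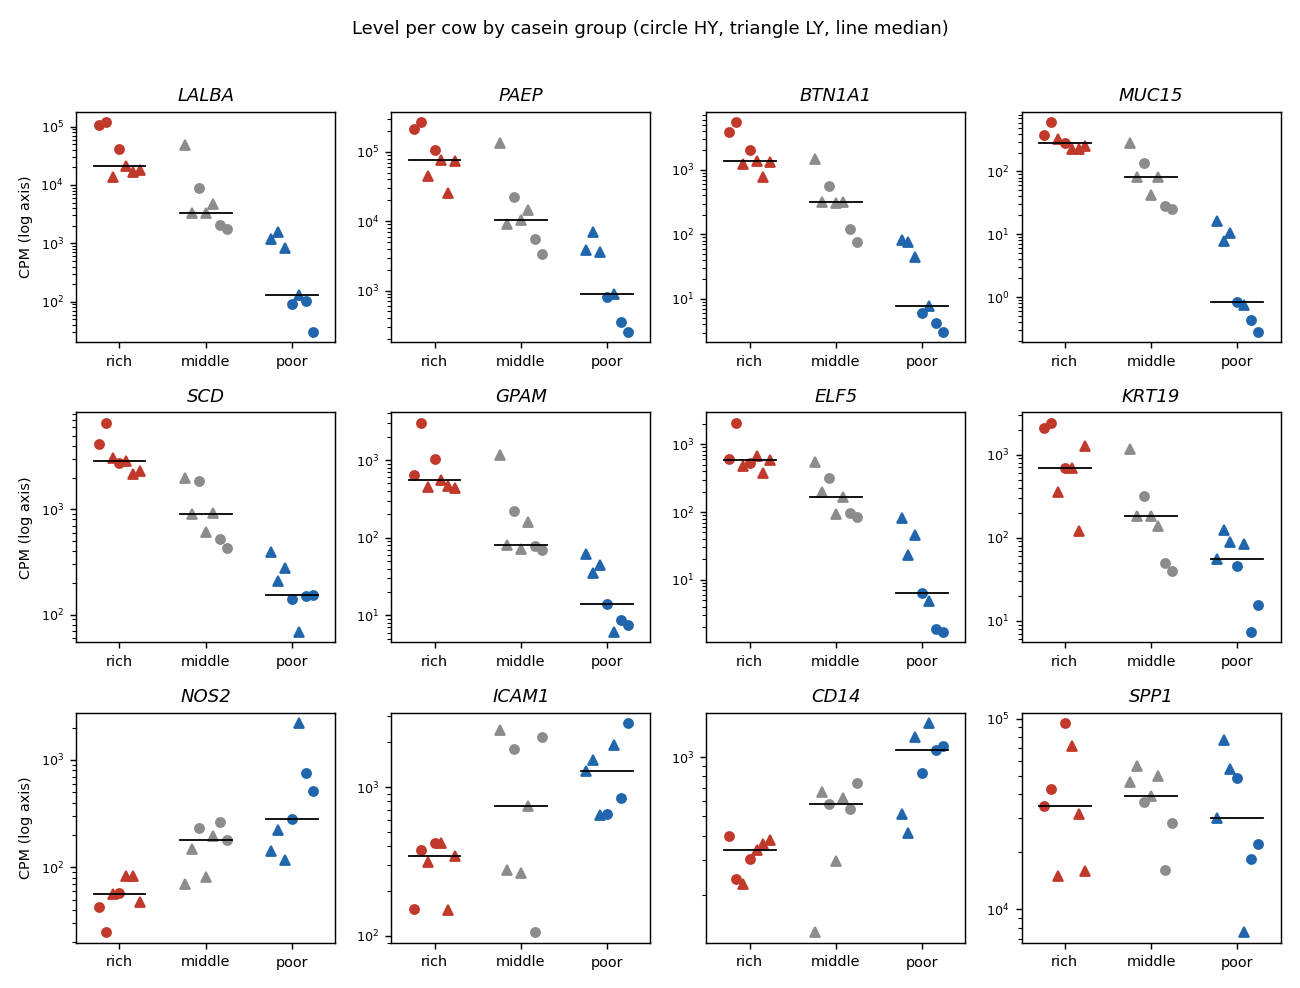
Level of 12 genes in each cow, as CPM of the casein-free counts on a log axis, for the casein-rich, middle and casein-poor cows (circles HY, triangles LY, line median of 7 cows, cows placed from left to right by casein share). LALBA runs from medians of 21050 to 127.7 CPM and NOS2 from 55.8 to 282.8 CPM, with no overlap between casein-rich and casein-poor cows, whereas the SPP1 groups overlap.

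Proteins of milk fat secretion were higher in casein-rich cows as well, 8 of 11 tested members with 0 lower and a list median of 4.13. BTN1A1, butyrophilin, the main protein of the milk fat globule membrane, was at 784.5 to 5416 CPM (median 1382) against 3.10 to 82.8 CPM (median 7.75). The groups did not overlap, and the log2 fold change was 6.16 (SE 0.87, edgeR adjusted p = 0.000172). MUC15, a membrane mucin of the globule, had medians of 286.3 and 0.847 CPM and a log2 fold change of 5.94. MFGE8, lactadherin, had medians of 600.6 and 45.2 CPM with a log2 fold change of 4.14 (SE 0.42, edgeR adjusted p = 3.91e-05). All 8 calls, including FABP3 (a fatty acid carrier), CIDEA (a droplet protein), MUC1, XDH (xanthine oxidoreductase, the partner of butyrophilin) and RAB18, held when single cows were left out. CD36, a fatty acid receptor shared by epithelium, macrophages and platelets, had a log2 fold change of 0.35 (SE 0.29, edgeR adjusted p = 0.444). PLIN2, which coats lipid droplets in many cell types, had 903 to 17250 CPM against 1141 to 2139 CPM and was not called (log2 fold change 1.33, SE 0.53, edgeR adjusted p = 0.0974), and without cow 3280 its log2 fold change was 0.36.

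Of 14 genes of de novo fatty acid synthesis, 5 were higher and 1 was lower, with a list median of 0.73. SCD, the desaturase that makes oleate from stearate, was among the genes with the lowest p of all. Its level was 2167 to 6614 CPM (median 2860) in casein-rich and 68.4 to 396.9 CPM (median 154.9) in casein-poor cows, a log2 fold change of 4.10 (SE 0.41, edgeR adjusted p = 3.91e-05). FASN, fatty acid synthase, had medians of 1236 and 81.2 CPM and a log2 fold change of 3.69. ACSS2, which activates acetate, the main carbon source of milk fat in ruminants, rose by 2.87, IDH1, a source of NADPH, by 2.48, and ACACA, acetyl-CoA carboxylase, by 2.01 on the log2 scale. The groups of these 5 genes did not overlap. SCAP, the sterol sensor that escorts SREBP, fell by 0.99 on the log2 scale, and this call was lost without any one of 6 cows, with an edgeR adjusted p of up to 0.0754 (without cow 7643).

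Fatty acid uptake and triacylglycerol assembly was less uniform, with 2 of 12 tested members higher and 0 lower (median 0.29). The share called higher was 16.7%, against 9.36% of all genes. GPAM, which catalyses the first acylation of glycerol-3-phosphate, was at 439.9 to 3015 CPM (median 548.3) against 6.09 to 62.2 CPM (median 13.9). Its groups did not overlap, and the log2 fold change was 5.21 (SE 0.68, edgeR adjusted p = 0.000119). SLC27A6, a fatty acid transporter, had medians of 21.3 and 0.141 CPM and a log2 fold change of 5.42, and 1 casein-poor cow had no count. DGAT1, the enzyme of the last acylation step, had medians of 12.04 and 17.9 CPM and was not called (log2 fold change -0.85, SE 0.34, edgeR adjusted p = 0.0977).

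Lactose synthesis split in its parts. Of 9 tested genes, UGP2 was higher, and HK1, SLC2A1, GALK1 and SLC35A2 were lower (median -0.30). UGP2, which makes UDP-glucose, was at 423.3 to 2054 CPM (median 735.3) against 177.9 to 362.4 CPM (median 310.1), with a log2 fold change of 1.56 (SE 0.33, edgeR adjusted p = 0.00458). HK1, the hexokinase of most tissues, was at 65.7 to 169.8 CPM against 186.3 to 349.8 CPM, and fell by 1.15 on the log2 scale (SE 0.23, edgeR adjusted p = 0.00315). In both genes the groups did not overlap. SLC2A1, the glucose transporter GLUT1, which leukocytes also carry, had overlapping ranges of 67.5 to 140.6 and 63.0 to 502.3 CPM. Its call (log2 fold change -1.28, edgeR adjusted p = 0.0225) was lost without cow 3280 or cow 7643, with an adjusted p of up to 0.0565 (7643). The calls of GALK1 and SLC35A2 were lost as well without cow 7643, at adjusted p of 0.0614 and 0.0589, and without 2 and 4 other cows.

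Among receptors and regulators of prolactin and growth hormone signalling, 6 of 12 tested genes were higher and 1 was lower (median 0.92). ELF5, the transcription factor of alveolar secretory cells, was at 372.8 to 2079 CPM (median 587.6) against 1.69 to 81.6 CPM (median 6.32), without overlap (log2 fold change 5.02, SE 0.85, edgeR adjusted p = 0.000633). The receptors themselves had few counts. PRLR, the prolactin receptor, had 1.41 to 5.24 CPM against 0 to 1.16 CPM (log2 fold change 2.90, SE 0.67, edgeR adjusted p = 0.00781). GHR, the growth hormone receptor, had no count in 4 of 7 casein-poor cows and 25 counts over all 7, so its log2 fold change of 3.77 (SE 0.99, edgeR adjusted p = 0.0175) rests on little depth. ESR1, the oestrogen receptor, was called at a median of 3.18 against 0.325 CPM. The lower gene was IGF1R, the receptor of insulin-like growth factor 1, at 5.55 to 36.1 CPM against 43.6 to 63.5 CPM without overlap (log2 fold change -1.22, SE 0.30, edgeR adjusted p = 0.0118). SOCS2 and GATA3 were called at adjusted p of 0.0359 and 0.0379 and lost their calls without any one of 8 and 9 cows, the highest adjusted p being 0.0759 (without cow 3075) and 0.0807 (without cow 3280).

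Ion transport genes were called only on the higher side (30%), and amino acid transporters on both sides (7.69% higher, 23.1% lower). Over all genes the shares were 9.36% higher and 4.89% lower. SLC30A2, a zinc exporter of the gland, SLC34A2, a phosphate transporter, and ATP2B2, the calcium pump of the apical membrane, were higher among 10 tested genes, with 0 lower and a median of 0.27. SLC30A2 had 11.4 to 76.7 CPM against 0 to 2.00 CPM (log2 fold change 5.13) and SLC34A2 had 16.6 to 107.5 against 0 to 4.55 CPM (log2 fold change 5.10). ATP2B2 had 3.35 to 6.60 against 0.282 to 3.26 CPM, with a log2 fold change of 1.93 (SE 0.53, edgeR adjusted p = 0.0221). None of these 3 genes overlapped between the groups. Of 13 amino acid transporters, 1 was higher and 3 were lower (median -0.15). SLC43A1, a carrier of large neutral amino acids, had a log2 fold change of 3.63 (3.62 to 26.1 against 0 to 1.59 CPM). SLC1A5, a glutamine transporter, fell by 1.53 on the log2 scale, with medians of 171.5 and 510.5 CPM. SLC3A2 and SLC7A7 were lower by 1.03 and 0.76, and lost the call without any one of 5 and 8 cows, at adjusted p of up to 0.0642 (without cow 3075) and 0.0719 (without cow 2814).

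Genes of the secretory machinery did not move with the caseins as a body. Of 29 tested genes of folding and translocation in the endoplasmic reticulum, 1 was higher (3.45%) and 4 were lower (13.8%), with a median of -0.17. Over all genes these shares were 9.36% and 4.89%. SPCS1, a signal peptidase subunit, was higher at a median of 84.0 against 36.2 CPM (log2 fold change 1.40, SE 0.30, edgeR adjusted p = 0.00489). SEC61A1, the translocon channel, was lower at a median of 90.1 against 192.3 CPM (log2 fold change -1.14, SE 0.29, edgeR adjusted p = 0.0143). The other lower genes, the folding factors HYOU1, CRELD2 and PDIA4, had log2 fold changes from -1.28 to -0.97. HYOU1 lost its call without cow 2814 (adjusted p = 0.0509), CRELD2 without cow 7643 (0.0558), and PDIA4 without any one of 5 cows, at up to 0.0843 (2814).

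Cytosolic ribosomal proteins were higher in 15 of 76 tested genes (19.7%, against 9.36% of all genes) and lower in 0. Their median was 0.59, with 69 genes above 0. RPL5 had 122.5 to 466.4 CPM (median 188.5) against 67.9 to 106.6 CPM (median 80.6), without overlap (log2 fold change 1.43, SE 0.30, edgeR adjusted p = 0.00352). RPS3A had medians of 1038 and 427.7 CPM and a log2 fold change of 1.78, and RPL9 had 44.4 and 18.7 CPM with 1.40. RPS27L, a p53-induced relative of RPS27, reached the largest log2 fold change of these 4, at 2.47. Of the 15 calls, 7 held in all 14 leave-one-out fits. Within LY cows, 41 of the 76 genes were below 0 and 0 were called, whereas within HY cows 0 were below 0 and 26 were called higher. Ribosomal protein genes have many processed pseudogenes, so some of their reads may have been left uncounted. Reads without a unique alignment, 21.6% to 27.5% of all counts of a cow, were not assigned to genes.

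Caseins are epithelial products, and the markers of epithelium were read next. Of 21 tested keratin and junction genes, 13 were higher and 0 lower, with a median of 1.78, and 10 of the 13 calls held in all 14 leave-one-out fits. The summed level was 389.7 to 3429 CPM in casein-rich and 60.7 to 546.4 CPM in casein-poor cows, so the sums overlapped. KRT19 had 121.2 to 2410 CPM (median 692.9) against 7.32 to 122.4 CPM (median 56.0), with a log2 fold change of 4.18 (SE 0.69, edgeR adjusted p = 0.000545). EPCAM, an epithelial adhesion molecule, had medians of 74.5 and 8.09 CPM (log2 fold change 3.00). CLDN8, a tight junction protein, ESRP1, an epithelial splicing regulator, and DSP, desmoplakin, rose by 4.98, 4.17 and 2.14 on the log2 scale without overlap. The luminal keratins KRT8 and KRT18 were not called. KRT8 had 15.6 to 135.6 CPM (median 66.0) against 5.59 to 60.1 CPM (median 25.0), with a log2 fold change of 1.36 (SE 0.54, edgeR adjusted p = 0.0951). KRT18 had a log2 fold change of 1.25 (SE 0.65, edgeR adjusted p = 0.208). CDH1, another of the epithelial markers, was not called either, at 9.41 to 30.2 against 9.13 to 19.55 CPM (log2 fold change 0.58, SE 0.29, edgeR adjusted p = 0.183). KRT8, KRT18, KRT19 and EPCAM had counts in all 14 cows. Of 6 tested myoepithelial genes, 0 were called (median 0.17), and their sum was 11.9 to 57.9 CPM and 9.82 to 61.0 CPM.

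**Figure D3:**
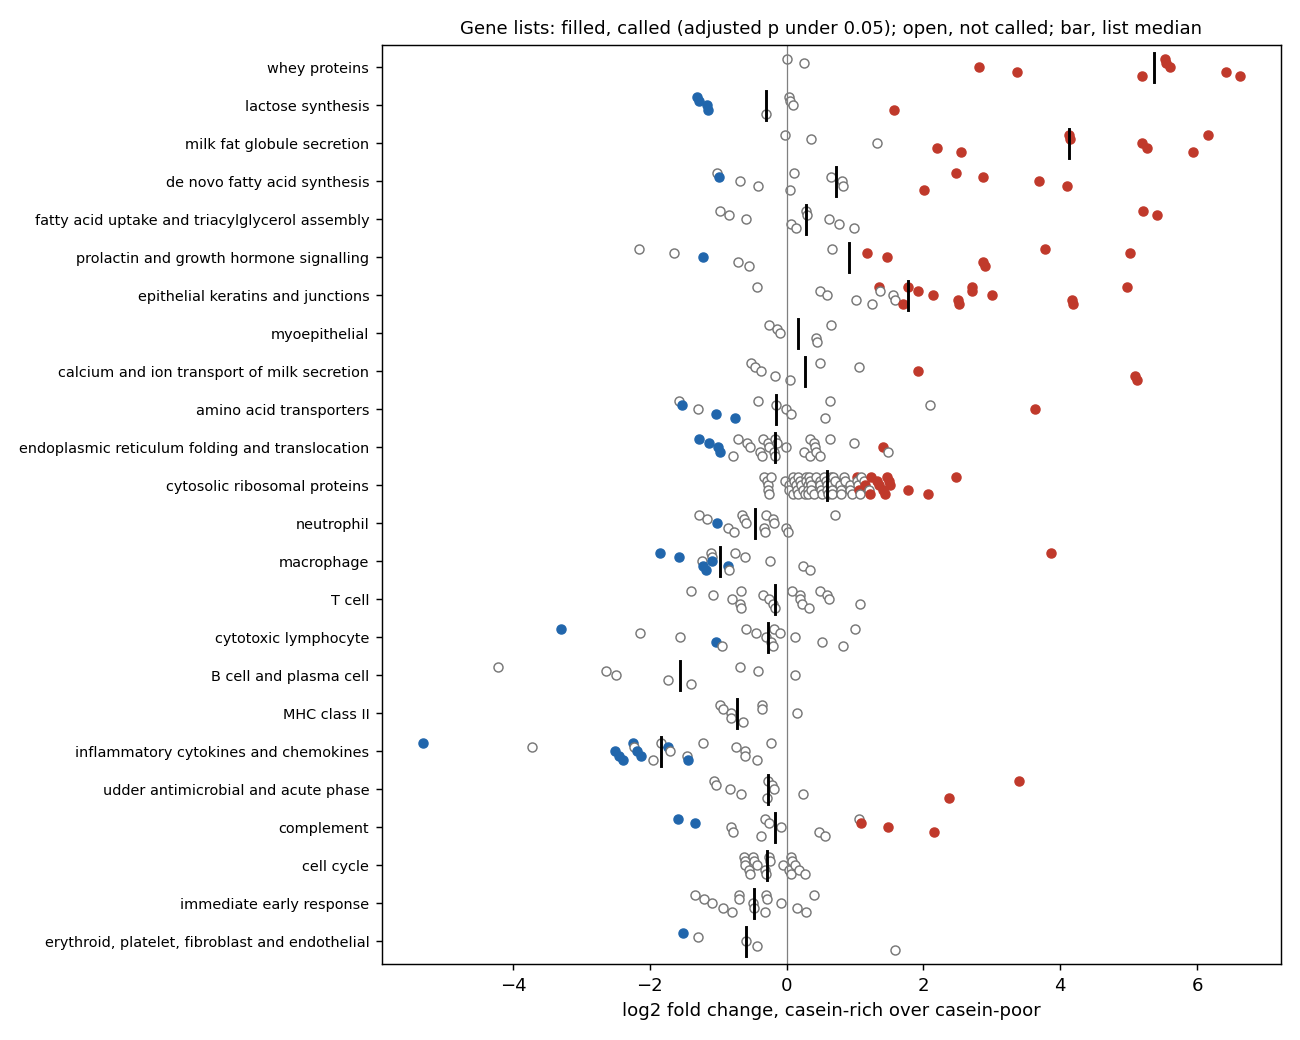
Log2 fold change of casein-rich over casein-poor cows (horizontal axis) for every tested member of 24 gene lists (rows), 1 point a gene, filled red or blue where called higher or lower and open where not called, with the list median as a black bar. The whey and milk fat globule lists have medians of 5.36 and 4.13, the inflammatory list has a median of -1.83, and T cell genes lie on both sides of 0 with none called.

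Taken over all tested genes, those with the lowest p on the higher side were of mixed function. SCD, MFGE8 and ESRP1 of this set belong to lists described above. FGG, the gamma chain of fibrinogen, was at 20.7 to 38.2 CPM (median 31.5) in casein-rich and 0.0542 to 1.43 CPM (median 0.462) in casein-poor cows, and gave the lowest adjusted p of all (log2 fold change 5.49, SE 0.51, edgeR adjusted p = 3.47e-05). S100B, a calcium-binding protein best known from glia, had 297.2 to 1159 CPM against 4.72 to 46.4 CPM (log2 fold change 4.90). BTC, the epidermal growth factor receptor ligand betacellulin, had medians of 12.4 and 0.427 CPM (log2 fold change 4.85). Over all tested genes, 4.5% did not overlap on the higher side. The groups did not overlap in any of the 10 genes of lowest p, which were picked by p between these same groups. The others were SCD, MFGE8, ESRP1, the carbonic anhydrase-related CA8 (4.68), the adhesion receptor GPR110 (5.57), the junction protein IGSF5 (4.17) and ECHDC1 (3.51), an enzyme that removes ethylmalonyl-CoA.

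The genes with the lowest p among those lower came from several functions. MGLL, monoacylglycerol lipase, was at 7.25 to 19.4 CPM (median 12.8) in casein-rich and 24.8 to 67.2 CPM (median 40.3) in casein-poor cows, without overlap (log2 fold change -1.86, SE 0.27, edgeR adjusted p = 0.000228). NOS2, the inducible nitric oxide synthase, was at 24.7 to 83.8 CPM (median 55.8) against 117.6 to 2200 CPM (median 282.8), also without overlap (log2 fold change -3.43, SE 0.60, edgeR adjusted p = 0.000862). Without cow 7643 it was -2.59, and the call held. Of this set, TMBIM1 (-1.81), TRIM25 (-1.40), an E3 ligase of antiviral signalling, and AP2A1 (-1.31), a clathrin adaptor, did not overlap, whereas LIMK1 (-1.63) and ALAS1 (-1.46), the first enzyme of haem synthesis, did.

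Inflammatory cytokines and chemokines were lower in 9 of 21 tested genes (42.9%) and higher in 0, and all 21 log2 fold changes were negative, with a median of -1.83. ICAM1, the adhesion ligand of leukocyte integrins, had 148.6 to 419.1 CPM (median 345.7) against 645.2 to 2687 CPM (median 1280), without overlap (log2 fold change -2.13, SE 0.38, edgeR adjusted p = 0.000879). CCL4, a chemokine for monocytes and T cells, had 78.4 to 202.6 CPM against 206.7 to 2155 CPM, again without overlap (log2 fold change -2.24, SE 0.51, edgeR adjusted p = 0.00689). CCL3 had medians of 109.1 and 480.3 CPM and a log2 fold change of -2.46 (SE 0.55, edgeR adjusted p = 0.00655). Without cow 7643 the log2 fold change of CCL3 was -1.87 and that of CCL4 -1.59. These 3 calls held in all 14 leave-one-out fits, but that of ICAM1 was lost with 10 against 10 cows (edgeR adjusted p = 0.275) and over all 21 cows on the casein share (0.0548), and those of CCL3 and CCL4 within LY and with 10 against 10 cows.

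The other 6 inflammatory calls were CSF2, CCL20, IL1RN, TNFAIP3, TNF and NFKBIA, and all of them were lost without casein-poor cow 7643. Only the call of CSF2 depended on that cow alone. CCL20 lost its call without any one of 2 cows, TNF and TNFAIP3 of 7 each, IL1RN of 8 and NFKBIA of 10. Within HY cows, which do not include cow 7643, IL1RN and TNFAIP3 were still called lower. The largest value belonged to CSF2, a colony-stimulating factor, at -5.32 on the log2 scale (edgeR adjusted p = 0.0227). In casein-poor cows its median was 0.564 CPM and its maximum 103.1 CPM, and without cow 7643 the log2 fold change was -2.03 with an adjusted p of 0.213. TNF had medians of 21.7 and 45.2 CPM with a maximum of 1037 CPM, and gave -0.77 (adjusted p = 0.338) in place of -2.50 without that cow. For CCL20, IL1RN, TNFAIP3 and NFKBIA the adjusted p without it was 0.118, 0.106, 0.119 and 0.11. In the middle cows, 15 of the 21 genes had a positive slope on casein share, so the direction of this list was not seen there.

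Macrophage genes were lower in 6 of 16 tested members (37.5%) and higher in 1, with a median of -0.98. CD14, the coreceptor for lipopolysaccharide, had 227 to 398.6 CPM (median 337.9) against 414.6 to 1485 CPM (median 1080), without overlap (log2 fold change -1.58, SE 0.29, edgeR adjusted p = 0.00133). CSF1R, the receptor of macrophage colony-stimulating factor, had 134.8 to 454.0 CPM against 453.9 to 1189 CPM, so that the ranges just met (log2 fold change -1.18, SE 0.29, edgeR adjusted p = 0.0118). C1QC, a complement C1q chain that macrophages make, had medians of 11.1 and 40.8 CPM and a log2 fold change of -1.84. The calls of C1QB, LGMN and CD68 were lost without any one of 5, 9 and 11 cows, each of them with its highest adjusted p without cow 2814 (0.0703, 0.0898 and 0.0955). CTSL1, a lysosomal cathepsin that is not limited to macrophages, was the gene called higher, at 4.51 to 31.2 CPM against 0 to 2.96 CPM (log2 fold change 3.86). CD163, a scavenger receptor, was not called (log2 fold change -1.09, SE 0.39, edgeR adjusted p = 0.0666). The sum of the list was 4180 to 9314 CPM (median 7611) in casein-rich and 7585 to 15450 CPM (median 12070) in casein-poor cows.

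Other leukocyte lists gave few calls or none. Of 16 neutrophil genes, 1 was lower (6.25%, against 4.89% of all genes) and 0 were higher, with a median of -0.46. The neutrophil sums overlapped at 3400 to 36650 CPM and 8307 to 26820 CPM. S100A9, the abundant calprotectin subunit, had 242.4 to 4235 CPM against 574.2 to 2071 CPM, with a log2 fold change of -0.02 (SE 0.52, edgeR adjusted p = 0.989). Of 19 T cell genes, 0 were called, with a median of -0.18 and sums of 174.1 to 2477 CPM and 248 to 2167 CPM. CD3E, a chain of the T cell receptor complex, had a log2 fold change of 0.07 (SE 0.59, edgeR adjusted p = 0.957).

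Of 16 cytotoxic lymphocyte genes, GNLY and NKG7, both of cytotoxic granules, were lower (12.5%, against 4.89% of all genes, list median -0.27). Both calls were lost without casein-poor cow 2814, at adjusted p of 0.0511 and 0.0557, and that of NKG7 without either of 2 other cows. GNLY had 0 to 7.20 CPM against 4.79 to 88.5 CPM. Of 8 B cell genes 0 were called, although their median was -1.56, and of 8 MHC class II genes 0 were called, with a median of -0.72. The B cell sums were 9.71 to 131.9 CPM and 33.4 to 411.4 CPM. CD74, the class II invariant chain, had overlapping ranges of 1138 to 5671 and 1081 to 9280 CPM (log2 fold change -0.81, edgeR adjusted p = 0.225).

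Of 11 tested antimicrobial and acute phase genes, CATHL5, a cathelicidin, and LBP, the lipopolysaccharide-binding protein, were higher and 0 were lower (median -0.27). The share called higher was 18.2%, against 9.36% of all genes. CATHL5 had 1.14 to 5.32 CPM against 0.0542 to 0.925 CPM and only 24 counts over the casein-poor cows. LBP had medians of 13.6 and 2.96 CPM (log2 fold change 2.38, SE 0.59, edgeR adjusted p = 0.0128). Of 14 complement genes, CD59, SERPING1 and C3 were higher (21.4%), and C2 and CFD lower (14.3%), with a median of -0.17. Over all genes these shares were 9.36% and 4.89%. CD59, which blocks the membrane attack complex and sits on milk fat globules, had 44.8 to 135.8 CPM against 14.1 to 35.0 CPM without overlap (log2 fold change 1.49, SE 0.27, edgeR adjusted p = 0.00114). Each of the other 4 complement calls was lost without at least 1 cow. SERPING1 lost it without cow 3262 (adjusted p = 0.0524), C2 without cow 2814 (0.0569), C3 without any one of 10 cows (up to 0.112, without cow 3280) and CFD without any one of 8 cows (up to 0.128, without cow 7643).

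Cell cycle genes (20 tested, median -0.28) and immediate early genes (16 tested, median -0.48) gave 0 calls. Of the erythroid, platelet, fibroblast and endothelial markers, 5 could be tested, and VWF, von Willebrand factor, was lower (log2 fold change -1.51, SE 0.36, edgeR adjusted p = 0.0097). PECAM1, shared by endothelium and leukocytes, was not called (log2 fold change -1.30, SE 0.49, edgeR adjusted p = 0.0804), and its log2 fold change was -0.58 without cow 3235. DCN, a fibroblast gene, was the 1 tested member with a positive log2 fold change and was not called. It had 1.40 to 8.79 CPM against 0.0542 to 3.55 CPM (log2 fold change 1.59, SE 0.66, edgeR adjusted p = 0.111). Among the untested markers of these cells, HBB had no count in any of the 14 cows, and HBA, ALAS2, COL1A1, COL1A2 and COL3A1 stayed at 0 to 0.488 CPM. The endothelial marker CDH5 had 0 to 1.25 CPM in casein-rich and 0 to 0.922 CPM in casein-poor cows. The part that macrophage, epithelial or other cell numbers had in the differences was not tested.

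The middle cows were used in neither group and allow the same genes to be read in other animals. Over these 7 cows, whose casein share ran from 2.78% to 17.0%, the log2 level of each gene was fitted on the log2 casein share. With edgeR 0 of 9419 genes were called, and 1064 had an unadjusted p under 0.05. Cow 2893, at the top of the range, had 18.1% of its casein-free counts on LALBA, PAEP and GLYCAM1. The median of the middle cows was 2.34%. It also had the fewest genes detected of all cows (9052), and the slopes were not fitted without it. The genes are not independent of each other and the casein share also set the groups, so the counts of slopes below are a description. The slope was positive for 801 of the 882 genes called higher (90.8%), against 49.6% of all tested genes. For the 461 genes called lower, it was negative in 325 (70.5%). BTN1A1 rose by 1.48 and LALBA by 1.58 on the log2 scale per doubling of the casein share. All 21 epithelial genes, all 10 whey genes and 73 of 76 ribosomal genes had a positive slope, as did 12 of 16 neutrophil genes, 1 of 16 macrophage genes and 1 of 19 T cell genes.

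**Figure D4:**
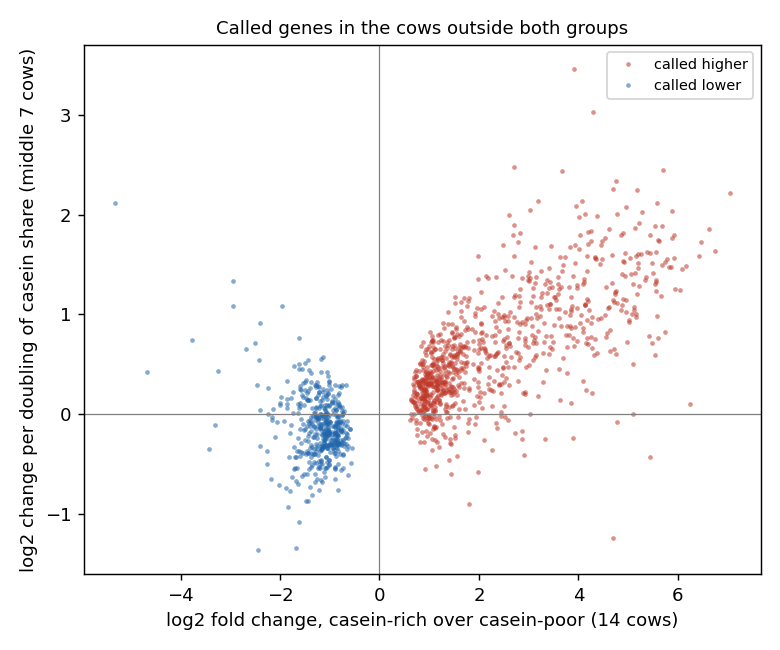
Log2 change per doubling of casein share in the 7 middle cows (vertical axis) against the log2 fold change of casein-rich over casein-poor cows (horizontal axis), 1 point for each of the 882 genes called higher (red) and the 461 called lower (blue). Of the red points 801 lie above 0, and of the blue points 325 lie below 0.

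Both milk yielding groups had casein-rich and casein-poor cows, so the comparison could be repeated within each. The HY cows were set further apart, with casein shares of 26.4% to 44.2% against 0.088% to 0.370% (3 against 3 cows). In LY the shares were 23.4% to 26.8% against 0.164% to 2.71% (4 against 4 cows). HY alone gave 790 genes higher and 411 lower, and LY alone gave 220 higher and 4 lower by edgeR, with 1294 LY genes at an unadjusted p under 0.05. These fits use the cows of the main comparison, so their directions are not a separate check. The median log2 fold change of the genes called higher was 2.44 within HY and 1.22 within LY, and that of the genes called lower was -1.37 and -0.94. The whey list had medians of 7.55 in HY and 3.56 in LY. The inflammatory list stayed near its main value, at -1.83 and -1.89. The median of the B cell list was -3.10 in HY and 0.45 in LY, and that of the ribosomal list 1.33 and -0.07. Medians also lay on both sides of 0 for the myoepithelial (0.94 and -0.03), ion transport (-0.02 and 0.45), T cell (-0.72 and 0.04) and antimicrobial lists (0.59 and -0.50).

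**Figure D5:**
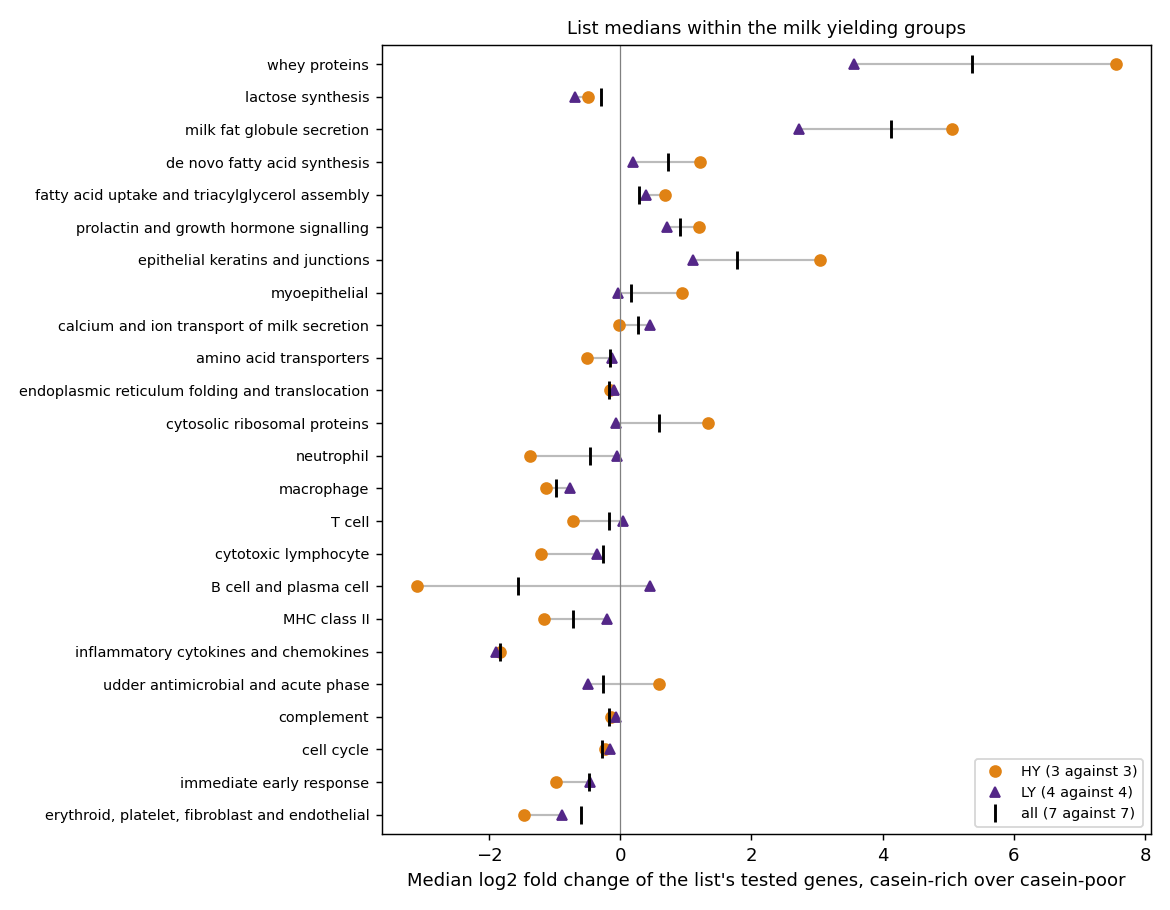
Median log2 fold change of casein-rich over casein-poor cows for each of 24 gene lists (rows), computed within HY cows (circles, 3 against 3), within LY cows (triangles, 4 against 4) and over all 14 cows (black bars). The whey list lies at 7.55 in HY and 3.56 in LY, and the inflammatory list at -1.83 and -1.89, with 7 of its genes called lower in HY and 1 in LY.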

How the data were processed

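Milk somatic cell RNA of 21 Holstein cows was sequenced, 1 library a cow. The authors trimmed reads with Trimmomatic, aligned them to bosTau7 using TopHat2 (which runs Bowtie2), and obtained gene counts from HTSeq. Versions and strand setting are not given in the sources used here. The authors deposited raw counts, without normalization, for 13570 gene rows of a cow. Lines for unassigned reads and a row without a gene name (0.036% to 0.151% of counts) were left out. Symbols of 23 rows had turned into calendar dates.

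Cows were ranked by casein share, and the caseins were taken out of the library sizes. Genes with a mean CPM of at least 1 over 21 cows (9419) were fitted with edgeR 4.0.16 (R 4.3.3) after TMM scaling, casein-rich against casein-poor, with the quasi-likelihood test and Benjamini-Hochberg adjustment at 0.05. SEs were taken from the fold change and its F statistic. Traits were compared by exact permutation over 3432 splits, and the share of HY cows by Fisher's exact test. The script was tested on simulated data. DESeq2 1.42.0 and limma 3.58.1 were alternatives. The median counts per cow were 11826889, and rare genes are read from few counts. Text genes were the 10 of lowest p in each direction, the whey list, up to 4 of lowest p in each other list and cell type markers, and further called list members and genes of the closing part were named after their values were seen. Some genes are not reported here. The groups, members and lists were chosen with earlier results of these data known, so no list is independent evidence. The p-values of genes set the group difference against the spread between these cows, in groups cut by casein counts of the same libraries.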

Additional observations from a re-analysis of the deposited data

Results flagged for a closer look

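The difference between casein-rich and casein-poor cows was tested for its own difference between HY and LY with an interaction term in edgeR. Of 9419 genes, 7 were called (lowest adjusted p = 0.00636) and 1207 had an unadjusted p under 0.05. All 7 were higher in casein-rich cows in both groups and had larger log2 fold changes in HY. LALBA had 10.2 in HY and 4.24 in LY, and BTN1A1 had 9.71 and 4.50. RNASE1, a secreted ribonuclease, had 8.79 and 2.89, and HSTN, histatherin, had 9.83 and 3.43. EFHD1, a calcium-binding protein, had 9.06 and 3.86, and C2H2orf80 had 12.5 and 4.07. The HY values come from 3 against 3 cows. Over all casein-poor cows the lowest levels of RNASE1, HSTN, EFHD1 and C2H2orf80 were 0.616, 6.76, 0.434 and 0 CPM. A fold change on levels near 0 CPM rests on few counts. These 4 genes were named after their values were seen. The casein shares were set further apart in HY, at 0.088% to 0.370% in casein-poor HY cows against 0.164% to 2.71% in casein-poor LY cows, and the part of that gap in these 7 genes was not tested.

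In 15 of 258 groups of 7 cows, 1 cow lay apart from the other 6 on the log scale (for parity, on its own scale). Chance flags about 1 in 20 groups. Among casein-rich cows, cow 3280 had the highest level of BTC (46.7 CPM) and ELF5 (2080 CPM) and the lowest of IGF1R (5.55 CPM), cow 7598 the highest of IL1RN (8300 CPM) and NFKBIA (4130 CPM), cow 3075 the lowest of GPR110 (22.4 CPM) and cow 3262 the highest of SLC1A5 (329 CPM). Among casein-poor cows, cow 2814 had the lowest UGP2 (178 CPM) and no count of SLC43A1 (0 CPM), and it was the only one of parity 3. Cow 3161 had the highest RPS27L (26.3 CPM) and CATHL5 (0.925 CPM), cow 3272 the lowest CD68 (1480 CPM), cow 7643 the highest C3 (219 CPM) and cow 3235 the highest PECAM1 (92.0 CPM).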

How the results depend on the processing

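Of 101 called genes named here, none changed direction in any of the fits tried. None lost its call with DESeq2 size factors in edgeR, with the caseins left in the library size or with the whey genes also left out. Without TMM 8 did (SLC35A2, SCAP, GATA3, HYOU1, PDIA4, TNFAIP3, TNF and C3), with no filter on low counts CD68 and NFKBIA, with DESeq2 CSF2, and with voom GNLY, CSF2, CCL20, TNFAIP3 and TNF. Calls lost were 7 with parity, 4 with lactation day, 3 with yield group, 3 with 5 against 5 cows, 18 with 10 against 10 cows, 4 over all 21 cows, 22 within HY, 60 within LY and 19 without the 2 casein-rich cows of lowest TMM factor. Of the genes described as not called, CD163 was called in 6 of 17 other fits, KRT8 in 4, PECAM1 in 3, CD74 in 2, and PLIN2 and DGAT1 in 1 each. CDH1 and DCN were not followed across these fits. Leaving out 1 cow moved further called values by over 1.5 times without ending the call. Without cow 3262 the log2 fold change was 2.20 for LTF and 4.91 for LPO, and without cow 3280 it was 4.56 for GPAM, 3.09 for GHR and 4.61 for RNASE1. Without cow 3161 it was 3.41 for LTF, 6.40 for LPO, 4.25 for CATHL5 and 6.52 for HSTN, and without cow 3198 it was 4.53 for CTSL1. Without cow 3272 it was 6.24 for GPR110, 6.59 for MUC15, 6.82 for SLC27A6, 5.79 for ELF5, 5.18 for GHR and 6.74 for C2H2orf80. Where the call ended, it was 1.30 for SERPING1 without cow 3262, -2.71 for GNLY without cow 2814, and -1.16 for CCL20 and -1.58 for TNFAIP3 without cow 7643. The counts of calls moved by over 1.5 times with DESeq2 (841 lower), with voom weights (2833 called, 1552 higher, 1281 lower), with 5 against 5 cows (730 lower), over all 21 cows on the casein share (2308 called, 999 lower) and within LY (224 called, 220 higher, 4 lower). Leaving out each cow in turn gave 913 to 1723 calls, 656 to 1003 higher and 239 to 720 lower, with the fewest calls without cow 3280 and the fewest lower without cow 3075.

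Over all 21 cows the lower calls were 3 in fatty acid synthesis, 2 in triacylglycerol assembly, 3 in prolactin signalling, 5 in amino acid transport, 7 in endoplasmic reticulum folding (with 2 higher), 4 each in the cytotoxic, B cell and MHC class II lists, 1 in immediate early genes and 2 in erythroid and endothelial markers (with 1 higher). With lactation day as a covariate 8 ribosomal genes were higher, and lower calls were 1 in triacylglycerol assembly, 2 in neutrophil, 1 in B cell and 1 in complement genes.

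Genes without a call that changed sign had small values. The log2 fold change of B2M was -0.19 without TMM, -0.037 with the caseins left in, -0.0079 with the whey genes out, -0.21 with voom, -0.017 with lactation day, -0.0020 with yield group, -0.066 with 5 against 5 cows and -0.039 within LY, and -0.12 to 0.12 on leaving out a cow. SPP1 gave -0.33 within LY and -0.063 to 0.54 on leaving out a cow. S100A9 gave 0.50 with 10 against 10 cows, 0.59 within LY, 0.25 without the 2 cows of lowest TMM factor and -0.77 to 0.17 on leaving out a cow. CD3E gave -0.13 with 10 against 10 cows, -0.095 over 21 cows, -0.049 within HY and -0.64 to 0.56 on leaving out a cow.

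The trait differences changed sign for parity with 5 against 5 cows (-0.2), and as differences of medians for milk yield (75.4), protein (0.792), solids (3.2) and genes detected (79). On leaving out a cow the difference ranged from -2.01 to 0.752 for fat and from -5.72 to 3.90 for solids. That in casein-free counts was -6124300 with 10 against 10 cows (exact permutation p = 0.00502) and -6010900 to -3572000 on leaving out a cow, with p under the threshold without cow 3235 (exact permutation p = 0.0385), 3198 (0.042) or 3264 (0.0472). The cause was not tested for any of these changes. Depth limits genes near 1 CPM, such as PRLR, GHR and CATHL5. No paired analysis was possible because no cow is in both groups and the replicate numbers used here only name the cows in accession order, the labels giving none.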
